A study of Mus musculus with 4 samples.

Results

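The secreted Wnt antagonists are proteins that cells release to restrain Wnt signalling, and their 10 genes were chosen by symbol from a deposited table of 39179 genes: Sfrp1, Sfrp2, Sfrp4, Sfrp5, Frzb, Dkk1, Dkk2, Dkk3, Wif1 and Notum. All 10 were found in the table, and 8 of them reached a mean of 10 normalized reads over the libraries and were tested. The study sequenced RNA of primary smooth muscle cells taken out of mouse aortas, 18 days after tamoxifen. There were 2 libraries from Sm-Yap/Taz-KO mice, in which Yap1 and Wwtr1, which encode the transcriptional co-activators YAP and TAZ, are inactivated (the knockout), and 2 from wild-type (WT) mice also given tamoxifen. The sources used here do not give the promoter that drives the recombinase, the age of the mice or the number of animals behind a library, and p-values here speak for the spread among these 4 samples alone, possibly a technical one.

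Wnt ligands carry a lipid group and signal by joining a Frizzled receptor to the co-receptors LRP5 or LRP6, after which β-catenin builds up and enters the nucleus. Antagonists act outside the cell at different points. The secreted Frizzled-related proteins (the Sfrp genes and Frzb, also called Sfrp3) hold a copy of the Frizzled ligand-binding domain and bind Wnts, as does WIF1 through a domain of another kind. The Dickkopf proteins DKK1 and DKK2 bind LRP5 and LRP6, DKK3 is a divergent relative, and NOTUM is an enzyme that removes the lipid from Wnts. In arteries, Wnt signals are known for roles in smooth muscle growth and in calcification of the wall.

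The normalized counts summed to between 13279332 and 14519178 in the 4 libraries, and the reads on genes were estimated at 11810000 to 16810000. Yap1 had 947 and 962 normalized counts in the knockout libraries and 1966 and 1877 in the wild-type ones (log2 fold change -1.01, SE 0.10, limma adjusted p = 0.0080). Wwtr1 had 2848 and 2466 against 3423 and 4016 (-0.48, SE 0.13, limma adjusted p = 0.055). The smooth muscle identity of the samples was checked with 10 markers, led by Myh11 and Acta2: all were present, and 8 of 10 were lower in the knockout, with summed counts of 162103 to 209411 against 463210 to 491165. Markers of other cells were present in every library, and their summed counts were higher in the knockout. Of the fibroblast markers, 3 of 14 passed the test (summed counts 343505 to 358519 against 100354 to 217215). So did 12 of 12 macrophage markers (13163 to 17444 against 1244 to 3488) and 6 of 8 adipocyte markers (10862 to 11812 against 1394 to 4052). Of the endothelial markers, 5 of 10 passed (11031 to 12775 against 4695 to 7084). The highest in level were, in the order of these lists, Col3a1 and Col1a1, Mrc1 and Lyz2, Cfd and Plin1, and Pecam1 and Vwf. Of these, Col3a1, Col1a1 and Vwf did not themselves pass (limma adjusted p = 0.075, 0.063 and 0.078). Among markers of cartilage, bone and Schwann cells, 4 of 5 tested, 2 of 2 tested and 1 of 4 were higher. The bone markers below the filter, named after their values were seen, did not go that way. Bglap was at 0 in every library. Sp7 had 6 and 1 counts in the knockout libraries against 20 and 11, and Ibsp had 11 and 9 against 11 and 5. At an unadjusted p under 0.05, 12 of the 14 fibroblast markers were higher, and the count of 3 called ones became 8 at the same total in every library, 9 after quantile normalization and 10 without wild-type replicate 2. With a robust prior, 2 adipocyte markers were called in place of 6. Of 10 genes listed as YAP/TAZ targets, 7 were lower and 0 higher by limma (8 and 0 at an unadjusted p under 0.05). Beside all these counts, limma called 9.58% of all tested genes higher and 6.7% lower (17.9% and 14.6% at an unadjusted p under 0.05). None of these fibroblast, macrophage, adipocyte or endothelial markers was at 0 in both wild-type libraries. Wild-type replicate 1 stood apart, with the lowest sums for all 4 kinds of cell, and wild-type replicate 2 had 2.16 times its fibroblast and 2.80 times its macrophage sum. In such bulk samples, fewer cells of a type and less RNA per cell cannot be told apart.

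Among the antagonists, 3 of the 8 tested genes rose in the knockout, none fell, and 5 did not pass the test. The 3 were Sfrp4, Sfrp1 and Frzb, all of the Frizzled-related family, with fold differences of 6.13, 4.46 and 3.20. The most abundant members per length, Sfrp2 and Dkk3, did not pass. Wif1 was the member with the most negative difference, and it missed the threshold. Over all 15058 tested genes, 9.58% were higher and 6.70% lower at a limma adjusted p under 0.05, with a median log2 fold change of -0.023, beside a median of 1.40 for the 8 antagonists. Wild-type replicate 1 carried much of that antagonist median, which was 0.24 without it and 1.92 with replicate 2 left out instead. Limma called 0 of the 8 lower, with 1 lower and 4 higher at an unadjusted p under 0.05, where 14.6% of all tested genes were lower and 17.9% higher.

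**Figure D1:**
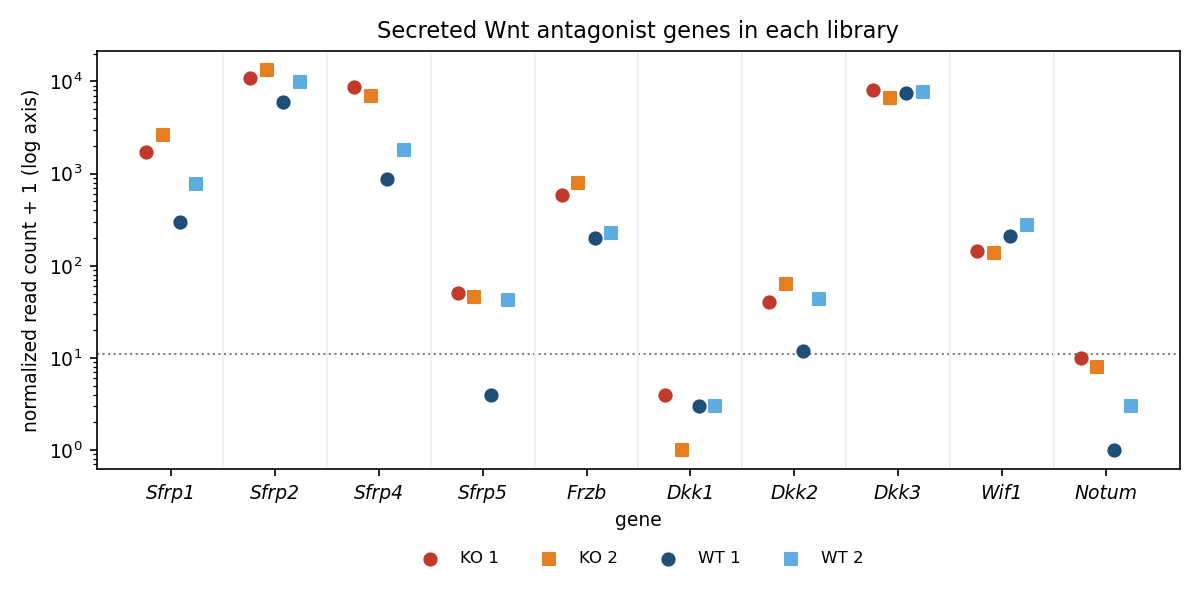
Normalized read count plus 1 (log axis) of each of the 10 antagonist genes in the 2 knockout (KO) and 2 wild-type (WT) libraries, 1 point per library. The dotted line marks a value of 10, the mean a gene needed to be tested; the knockout points of Sfrp1, Sfrp4 and Frzb lie above both wild-type points, and those of Dkk3 lie one above and one below the wild-type pair.

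Sfrp4 encodes a secreted Frizzled-related protein that is also known as a regulator of bone and phosphate handling. The gene (ENSMUSG00000021319, chr13:19623104-19632994, plus strand, GRCm38) had 8607 and 6894 normalized counts in the knockout libraries and 864 and 1823 in the wild-type ones. Both knockout values were several times the higher wild-type value, so the groups did not overlap. The log2 fold change was 2.62 (SE 0.34, 95% confidence interval 1.79 to 3.45, limma adjusted p = 0.011, n = 2 per group), the largest among the tested antagonists. It ranged from 2.08 without wild-type replicate 1 to 3.15 without wild-type replicate 2.

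Sfrp1 encodes a Wnt-binding protein of the same family. This gene (ENSMUSG00000031548, chr8:23411502-23449632, plus strand) had 1731 and 2620 counts in the knockout libraries and 296 and 767 in the wild-type ones. Its groups did not overlap, but each group was spread, with wild-type replicate 2 at 2.59 times replicate 1. The log2 fold change was 2.16 (SE 0.45, interval 1.07 to 3.25, limma adjusted p = 0.028). Without wild-type replicate 1 it was 1.47, and without wild-type replicate 2 it was 2.84. With a robust estimate of the prior variance, limma gave an adjusted p of 0.0575 and the call was lost.

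Frzb, the founding member of the family and a gene known for its role in cartilage, had 581 and 788 counts in the knockout libraries and 197 and 225 in the wild-type ones. The gene (ENSMUSG00000027004) lies at chr2:80411970-80447625 on the minus strand. Its wild-type libraries were closer to each other than those of Sfrp4 and Sfrp1, and the groups did not overlap. This is a log2 fold change of 1.68 (SE 0.19, interval 1.21 to 2.15, limma adjusted p = 0.0090), the smallest adjusted p of the 8 tested antagonists.

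With 1 library left out, the log2 fold changes of the 3 stayed positive, and that of Frzb ranged from 1.46 to 1.90. Without knockout replicate 1, limma adjusted p-values were 0.18 for Sfrp4, 0.21 for Sfrp1 and 0.16 for Frzb. Without knockout replicate 2 they were 0.21, 0.29 and 0.21, and without wild-type replicate 1 they were 0.13, 0.15 and 0.13, in the same order. Without wild-type replicate 2, Sfrp4 (0.038) and Sfrp1 (0.041) passed and Frzb (0.0525) did not. Over the whole table, limma called 0 genes when either knockout library or wild-type replicate 1 was left out, so the calls lost there are not particular to these 3 genes, and it called 740 without wild-type replicate 2.

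**Figure D2:**
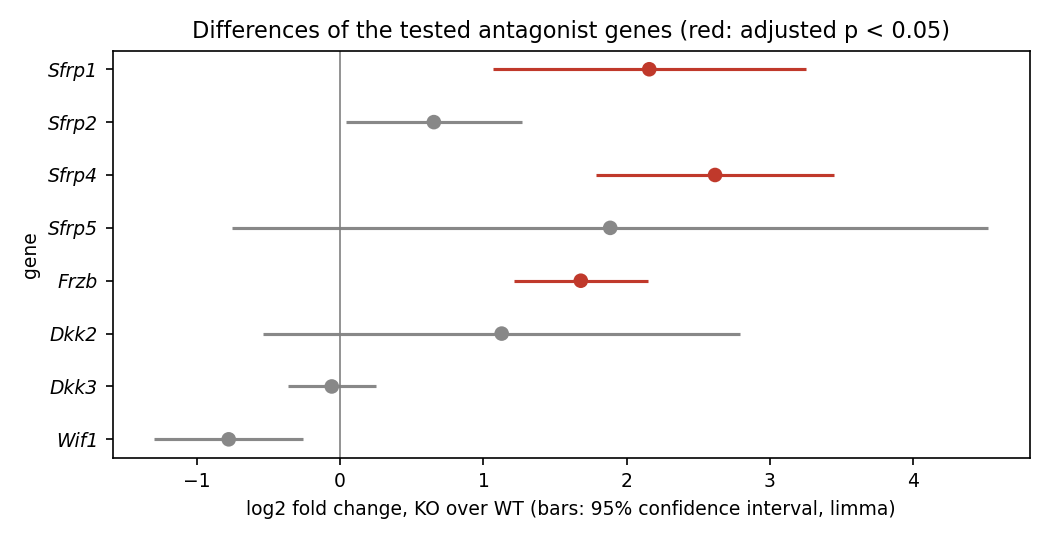
Log2 fold change of knockout over wild type for the 8 tested antagonists, as points with 95% confidence intervals from limma (n = 2 libraries per group). The intervals of Sfrp1, Sfrp4 and Frzb (red, adjusted p under 0.05) lie above 0, while those of Sfrp5 and Dkk2 span 0 and are the widest.

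The remaining Frizzled-related genes did not pass. Sfrp2 (ENSMUSG00000027996, chr3:83766321-83774316, plus strand) encodes a Wnt-binding protein made in quantity by fibroblasts. It had 10969 and 13364 counts in the knockout libraries and 5944 and 9960 in the wild-type ones. The groups did not overlap, yet knockout replicate 1 and wild-type replicate 2 lay close together (log2 fold change 0.65, SE 0.25, interval 0.040 to 1.27, limma adjusted p = 0.13). The log2 fold change of Sfrp2 was 0.28 when wild-type replicate 1 was left out and 1.03 when the other wild-type library was. An antisense gene, Gm26771, overlaps 16.1% of the exon length of Sfrp2, and at 5 to 10 counts per library it was far below it. Sfrp5 (ENSMUSG00000018822, chr19:42197971-42202252, minus strand), known as a secreted factor of adipose tissue, had 50 and 45 counts in the knockout libraries and 3 and 42 in the wild-type ones. Wild-type replicate 1 alone was low, with an estimated 3 reads, and the other 3 libraries were alike. The log2 fold change of Sfrp5 was 1.88 (SE 1.08, interval -0.75 to 4.52, limma adjusted p = 0.28), and it was 0.17 without that library.

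Of the Dickkopf genes, Dkk3 (ENSMUSG00000030772, chr7:112116017-112159057, minus strand) was the most abundant, and its 4 libraries were close to each other. It had 8031 and 6617 counts in the knockout libraries and 7487 and 7700 in the wild-type ones, with the wild-type values between the knockout ones. Their log2 fold change was -0.059 (SE 0.13, limma adjusted p = 0.79), with an interval of -0.37 to 0.25. The sign turned at the same total in every library (0.025), after quantile normalization (0.11) and without knockout replicate 2 (0.081).

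Dkk2 (ENSMUSG00000028031, chr3:132085292-132180304, plus strand), which encodes an LRP-binding antagonist, was low at 39 and 62 counts in the knockout libraries and 11 and 43 in the wild-type ones. The groups overlapped, and wild-type replicate 1 was again the low library. The difference was 1.13 on the log2 scale (SE 0.68, interval -0.54 to 2.79, limma adjusted p = 0.31), and 0.19 without that library. Dkk1 (ENSMUSG00000024868, chr19:30545863-30549665, minus strand), the best-known member of the family, had 3 and 0 counts in the knockout libraries and 2 and 2 in the wild-type ones. These are a few reads in each library, and no difference was detectable at this depth.

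Wif1 (ENSMUSG00000020218, chr10:121033960-121100650, plus strand) encodes Wnt inhibitory factor 1, which binds Wnts outside the cell. It had 142 and 137 counts in the knockout libraries and 207 and 278 in the wild-type ones. Both knockout libraries were below both wild-type libraries, the reverse of the Frizzled-related genes. The log2 fold change was -0.78 (SE 0.21, interval -1.30 to -0.26), and the limma adjusted p of 0.058 missed the threshold. After quantile normalization limma gave an adjusted p of 0.031 and a log2 fold change of -0.91.

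Notum (ENSMUSG00000042988, chr11:120653788-120661175, minus strand), which encodes the Wnt deacylase, was low at 9 and 7 counts in the knockout libraries and 0 and 2 in the wild-type ones. The knockout values were the higher ones, with an estimated 8 and 6 reads behind them. The gene was below the filter and was not tested in the main fit. The annotated antisense genes Notumos and Myadml2os overlap 29.4% and 8.72% of the exon length of Notum. Neither was found under that name in the deposited table. Their reads cannot be told apart from those of Notum without the strand setting of the counting.

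Of the 8 tested antagonists the groups did not overlap for 6, with 5 higher and 1 lower in the knockout, where 30.7% of all tested genes were higher and 32.1% lower without overlap. The 5 were Sfrp1, Sfrp2, Sfrp4, Sfrp5 and Frzb, which are all the Frizzled-related genes, and the 1 was Wif1. The nearest knockout and wild-type values lay close together for Sfrp2 (10969 and 9960) and Sfrp5 (45 and 42).

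To compare genes with each other, normalized counts were divided by the exon length in kb. In the wild type the order was Sfrp2 (3693 ± 1319 counts per kb, SD, n = 2), Dkk3 (2261 ± 44.8), Sfrp4 (321 ± 162), Sfrp1 (122 ± 76.2), Wif1 (99.9 ± 20.7), Frzb (65.2 ± 6.12), Sfrp5 (11.8 ± 14.5) and Dkk2 (7.29 ± 6.11), with Dkk1 and Notum under 1 count per kb. The libraries of Sfrp1 and Wif1, of Sfrp5 and Dkk2, and of Dkk1 and Notum overlapped, so those neighbours do not differ beyond their spread. The wild-type libraries of Sfrp1 and Frzb overlapped as well. In the knockout Sfrp4 (1855 ± 290) came up to the level of Dkk3 (2180 ± 298), with overlapping libraries, and Frzb (211 ± 45.2) stood above Wif1 (57.5 ± 1.46).

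The summed level per length of the 10 antagonists was 10221 and 10769 in the knockout libraries and 5416 and 7750 in the wild-type ones. Sfrp2 made up 49.8% and 57.6% of that sum in the knockout libraries against 51.0% and 59.7%, so its share overlapped between the groups. Sfrp4 made up 20.2% and 15.3% in the knockout libraries against 3.82% and 5.63%. The share of Dkk3 was 23.4% and 18.3% in the knockout against 41.2% and 29.6%. The sum of these 10 genes thus held more Sfrp4 and a smaller share of Dkk3 in both knockout libraries, although the level of Dkk3 itself did not pass the test. It leaves out antagonists that were not chosen, such as Sost, at 2326 and 4683 counts in the knockout libraries against 7003 and 7650.

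**Figure D3:**
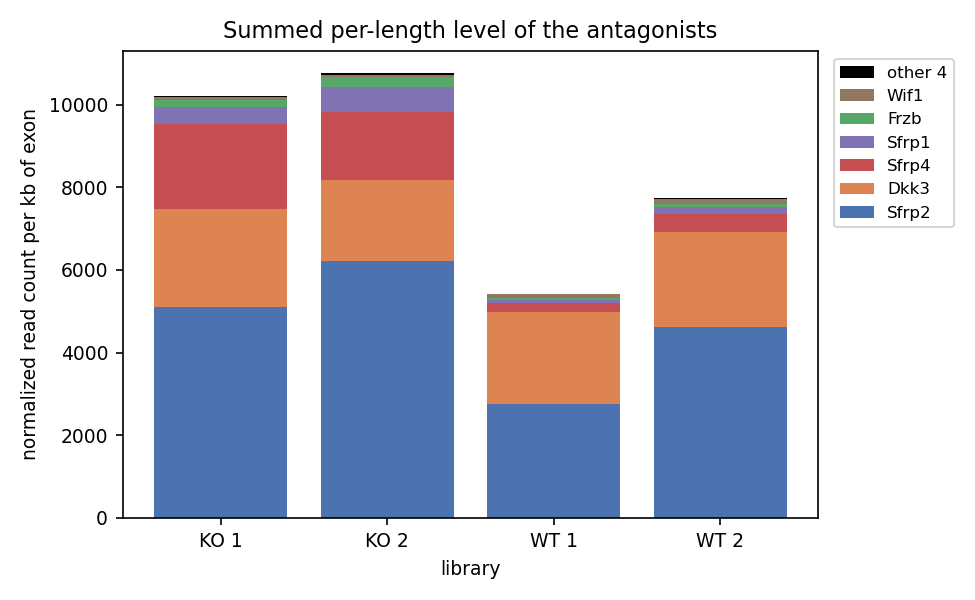
Normalized read count per kb of exon, stacked over the 10 antagonist genes, for each library. The 2 knockout bars reach 10221 and 10769 and the 2 wild-type bars 5416 and 7750, and the Sfrp4 segment takes a larger share and the Dkk3 segment a smaller one in both knockout bars.

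Fibroblast markers moved with the Frizzled-related genes, so each antagonist was also set against them as its log2 value minus the mean log2 value of the 14 fibroblast markers. On this scale Sfrp4 was at 0.39 and 0.27 in the knockout libraries against -1.03 and -1.07. The wild-type libraries, which differed 2.11-fold in Sfrp4 itself, were then nearly equal. Sfrp1 was at -1.92 and -1.13 against -2.57 and -2.31, still without overlap. The markers themselves differed, with log2 fold changes from 0.22 (Mfap5) to 2.14 (Lum), both named after their values were seen. The 2.16 of Sfrp1 was thus near that of the highest marker. Frzb was at -3.50 and -2.86 against -3.16 and -4.08, so its groups overlapped. Sfrp2 was at 0.74 and 1.22 in the knockout libraries against 1.75 and 1.38, which puts it lower in the knockout relative to these markers. Dkk3 and Wif1 were also lower on this scale, by mean differences of -1.30 and -2.02, and Sfrp5 and Dkk2 overlapped. The mean log2 value of the fibroblast markers was itself 12.68 and 12.48 in the knockout libraries against 10.79 and 11.90. A gene without change comes out lower there, and the own log2 fold change of Dkk3 was -0.059. Against the 10 smooth muscle markers, 7 of the 8 antagonists were higher in the knockout without overlap and Wif1 overlapped. The mean log2 value of those markers was itself 13.40 and 12.98 in the knockout libraries against 14.36 and 14.23. A gene without change comes out higher there, as Dkk3 did, so this count does not show a rise of the antagonists. For neither marker set was the share of all genes that separate this way computed. The median log2 fold change was 1.22 for the fibroblast markers. It was higher for macrophage (2.87), cartilage (2.79), adipocyte (2.22), bone (2.13) and endothelial (1.34) markers and lower for Schwann cell markers. The antagonists were not set against these other markers, so the excess of Sfrp4 and Sfrp1 is shown for the fibroblast scale alone. Whether it holds on the other scales was not tested. These values are a description of the 4 libraries, and the part of the fibroblast, macrophage, adipocyte and endothelial markers in the results was not tested.

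**Figure D4:**
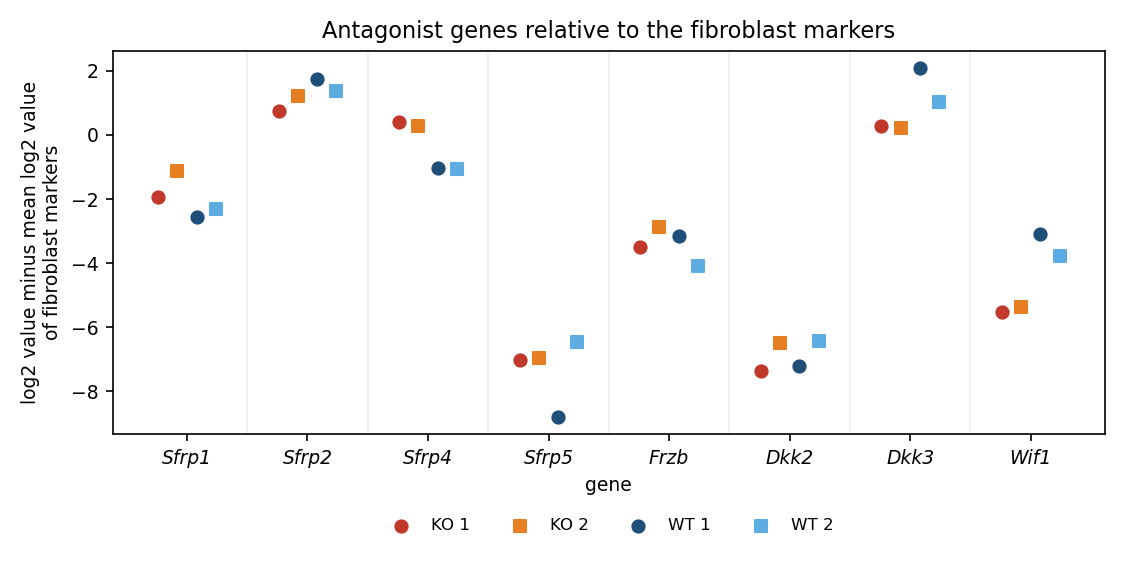
Log2 value of each tested antagonist minus the mean log2 value of 14 fibroblast markers in the same library, 1 point per library (KO, knockout; WT, wild type). Sfrp4 and Sfrp1 keep both knockout points above both wild-type points, Frzb overlaps, and Sfrp2, Dkk3 and Wif1 have the knockout points below. The marker mean was itself higher in both knockout libraries, so a gene without change lies lower there.

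Promoter sequences were available from RefSeq (GRCm38.p6) for 6 of the 10 genes: Frzb, Sfrp2, Sfrp5, Dkk1, Dkk2 and Wif1. Each window ran from 250 bases before to 50 after the start site, 300 bases in all, and was searched on both strands for 2 short motifs, whose letters do not overlap each other. The motif CATTCC, bound by the TEAD factors through which YAP and TAZ act, was in none of the 6 windows and in 14.7% of all 32851 promoter windows. The motif CTTTGA, the core bound by the TCF and LEF factors that carry β-catenin, was in 2 of the 6 windows, those of Frzb and Dkk1, and in 16% of all windows. The matches are shown because Frzb is the called antagonist with a sequence and Dkk1 is known as a target of β-catenin. Each is printed 5′ to 3′ on the strand of the gene with the motif, or its reverse complement TCAAAG, in capitals. GENCODE starts both genes further upstream than RefSeq, so the Frzb stretch and the second Dkk1 stretch lie in its first exons and the first Dkk1 stretch crosses the start. A match is only a match of letters.
Frzb, chr2:80447474-80447503, motif at -95: tcccctgaaaacTCAAAGccttctcggaag
Dkk1, chr19:30549653-30549682, motif at -174: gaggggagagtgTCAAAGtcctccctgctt
Dkk1, chr19:30549596-30549625, motif at -117: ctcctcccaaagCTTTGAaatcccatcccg

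Other genes of the pathway were called in both directions. Of 72 other Wnt pathway genes tested, in 6 lists, 9 rose, 14 fell and 49 did not pass, beside the 9.58% higher and 6.70% lower over all genes, and their median log2 fold change was -0.12. Limma called 0 of the 9 tested Wnt ligand genes, with 3 higher and 0 lower at an unadjusted p under 0.05, beside the 17.9% and 14.6% of all genes. Wnt2 had 186 and 128 counts in the knockout libraries and 18 and 60 in the wild-type ones (log2 fold change 2.19, SE 0.57, limma adjusted p = 0.052). Wnt5a, a ligand best known for signalling without β-catenin, had 1655 and 1118 counts against 558 and 955 (0.90, SE 0.30, limma adjusted p = 0.094). Limma called 1 ligand higher after TMM scaling, at the same total, after quantile normalization, with a pseudocount of 5, with a replicate block or without wild-type replicate 2.

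Among 14 receptor genes, 2 rose and 3 fell. Beside this count and that of the R-spondin axis below, 9.58% of all tested genes were higher and 6.7% lower. Fzd8 was at 228 and 219 counts in the knockout libraries and 1084 and 827 in the wild-type ones (log2 fold change -2.08, SE 0.17, limma adjusted p = 0.0056). Fzd5 (-0.95, SE 0.17) and Fzd2 (-1.15, SE 0.24) also fell. The rises, named once their values were known, were in Fzd4 (0.70, SE 0.16) and in Ror2 (1.68, SE 0.38), which encodes a receptor for Wnt5a. Genes of the co-receptors to which Dickkopf proteins bind did not pass: Lrp5, named with Lrp6 after their values were seen, had a log2 fold change of -0.30 and Lrp6 one of 0.12. Of 6 tested genes of the R-spondin axis, which strengthens Wnt signals by sparing Frizzled receptors from removal, 1 rose and 3 fell. The falls were in the receptor genes Lgr4 (-0.84) and Lgr6 (-0.63) and in Znrf3 (-0.67), which encodes the ligase that removes Frizzled receptors. The riser, named after its values were seen, was Rspo3 (1.39), which encodes an R-spondin.

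Other extracellular regulators include antagonists outside the 10 genes. Of 14 tested, 2 rose and 3 fell, beside 9.58% higher and 6.7% lower over all tested genes. Igfbp4, which encodes an IGF-binding protein also known to bind Wnt receptors, had 16740 and 19397 counts in the knockout libraries and 3075 and 5950 in the wild-type ones (log2 fold change 2.07, SE 0.30, limma adjusted p = 0.013). The glypican genes Gpc6 (-0.75, SE 0.093) and Gpc4 (-0.77, SE 0.10), for cell-surface proteoglycans that hold Wnts, fell. The other riser and the third gene that fell, named after their values were seen, were Tpbg (1.96, SE 0.36), which encodes a membrane inhibitor of Wnt signalling, and Ndp (-3.29, SE 0.67), whose product Norrin activates the receptor encoded by Fzd4. Sost, named after its values were seen, encodes sclerostin, an antagonist that binds LRP5 and LRP6. It was at 2326 and 4683 counts against 7003 and 7650, with both knockout values below both wild-type values, and did not pass (-1.15, SE 0.31, limma adjusted p = 0.056).

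Inside the cell, 4 of 16 transducer genes fell: Pygo1 (-0.81), Bcl9 (-0.75) and Bcl9l (-0.63), which encode co-activators of β-catenin, and Tcf7l1 (-0.49), named after its values were seen. By limma 0 of the 16 were higher, beside 6.7% lower and 9.58% higher over all tested genes. At a limma unadjusted p under 0.05, 10 of the 16 were lower and 0 higher, beside 14.6% and 17.9% of all tested genes. Of 13 tested β-catenin target and feedback genes, 4 rose and 1 fell, beside the same shares of all tested genes. At a limma unadjusted p under 0.05, 7 were higher and 1 lower. The median log2 fold change was 1.17 (0.77 without wild-type replicate 1, 0.76 after quantile normalization and 0.71 with the filter at a mean of 50). The adhesion receptor gene Cd44 (1.48) and Wisp1 (1.87) rose, as did Ccnd1 (1.98) and Wisp2 (0.71), named after their values were seen, and the feedback inhibitor gene Nkd1 fell (-1.23). Axin2, a feedback gene, was at 147 and 153 counts against 160 and 125 (0.084, SE 0.22, limma adjusted p = 0.83), and Lef1 was too low to be tested (2 and 10 counts against 3 and 2). The calls of these pathway genes at an adjusted p under 0.05 were all lost without wild-type replicate 1 or without either knockout library. So were all calls of the whole table. Without wild-type replicate 2, limma called 7 pathway genes higher and 1 lower.

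**Figure D5:**
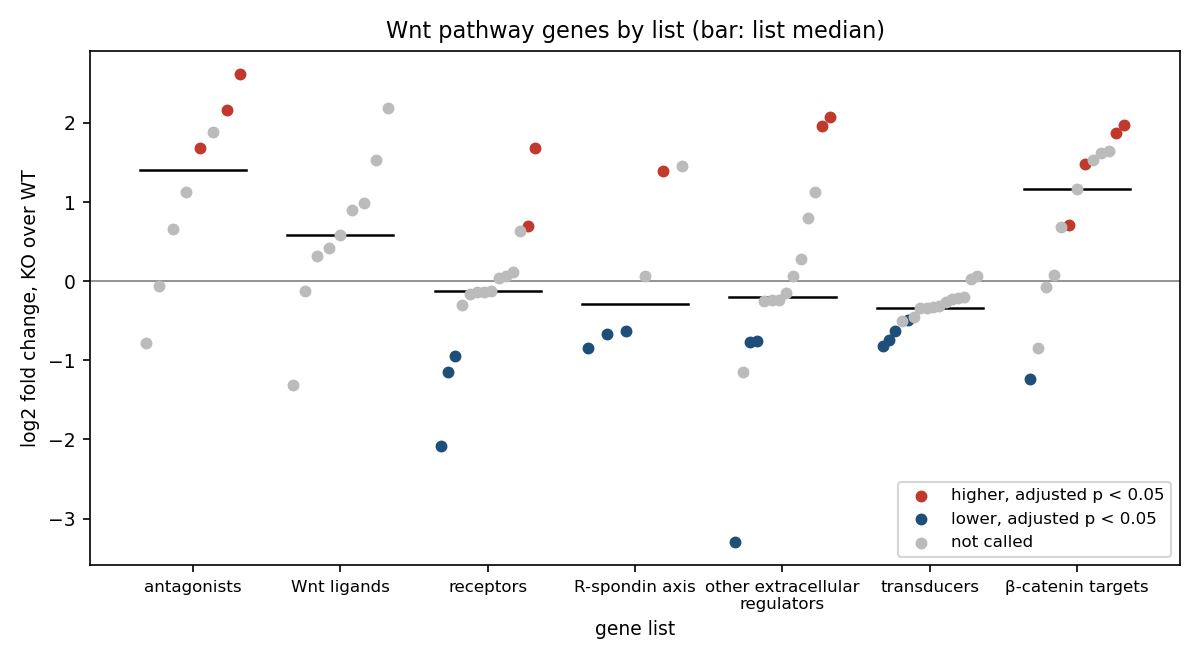
Log2 fold change of knockout over wild type for the tested genes of the antagonist list and 6 other Wnt pathway lists, 1 point per gene, with the list median as a bar. The antagonist median is 1.40 (0.24 without wild-type replicate 1), that of the transducers is -0.33 (-0.29 without it), and the called genes (coloured, limma adjusted p under 0.05) lie on both sides of 0 in the receptor, R-spondin, other regulator and target lists.

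The genes whose profile over the 4 libraries was nearest to that of a called antagonist were found by Euclidean distance between log2 values centred on each gene's mean. Nearest to Sfrp4 were Apold1 (distance 0.052), Serpina3c (0.21) and Dgkk (0.22). Nearest to Sfrp1 were Gprin3, Sdf2l1 and the predicted gene Gm8995 (0.10 each). Nearest to Frzb were Trim30d (0.048), Limk1 (0.093) and Chaf1a (0.093). With 4 libraries and 15058 genes, such a short distance is easily met, and it says nothing of shared function.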

How the data were processed

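The authors deposited 1 table with a column for each of the 4 libraries (2 knockout, 2 wild type). Per the labels' protocols, ribosomal RNA was removed from total RNA before a stranded library preparation. The submitters' processing notes name the build mm10/GRCm38 and the tools DESeq2 1.14.1, featureCounts 1.5.1 from Subread, STAR 2.5.2b and FastQC, with no roles. The sources used here do not give the annotation release, the strand setting or filters. The deposited values are a score: normalized read counts rounded to whole numbers, as the skipped and doubled whole numbers show, so no count model was used. That spacing gave size factors (0.887 and 0.89 for the knockout, 1.10 and 1.16 for the wild type), from which reads were estimated.

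Values were transformed to log2(value + 1), which understates the change of low genes. Genes with a mean of at least 10 were fitted with limma 3.58.1 in R 4.3.3, with the group as the single term and an intensity trend (3.96 prior and 2 residual degrees of freedom). Two-sided p-values were adjusted by Benjamini-Hochberg over all 15058 genes and called at 0.05. Fold changes are knockout over wild type. SDs are over 2 libraries on the count scale. The script was tested on simulated data. The members and lists were chosen with earlier results of these data known. The named genes were the 10 members, up to 3 genes per other Wnt list by smallest p, Axin2, Lef1, Wnt5a and the 2 highest markers per list; genes named after their values were seen are marked as such. Positions and exon lengths (union of exons) come from GENCODE M21 on GRCm38, matched by identifier for all 10. Other scalings, pseudocounts, filters, variance settings, left-out libraries, a replicate block and the longest transcript as length were tried.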

Additional observations from a re-analysis of the deposited data

How the results depend on the processing

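The number of calls changed with the variance model and with the libraries used. Without a filter on low values, and without an intensity trend, limma called 0 antagonists, 0 other Wnt pathway genes and 0 genes in all, in either direction. At an unadjusted p under 0.05 there were then 5 antagonists and 5472 genes in all, and 4 antagonists and 4274 genes, in that order. The 5 without the filter were not those of the main fit. Notum entered (log2 fold change 2.37, limma unadjusted p = 0.035, adjusted p = 0.19), and Sfrp2 (limma adjusted p = 0.30) left. With 1 library left out, the calls ranged from 0 to 2 antagonists higher, 0 to 7 other pathway genes higher and 0 to 1 lower, and 0 to 587 genes higher and 0 to 153 lower in all. An arm with 1 library is then assumed to vary like the other. After quantile normalization 1 antagonist, Wif1, was called lower, and the log2 fold change of Dkk3 turned to 0.11; it turned to 0.025 at the same total in every library. With 1 library left out, the log2 fold change of Dkk3 ranged from -0.20 without knockout replicate 1 to 0.081 without knockout replicate 2. A robust prior left 2 antagonists higher. TMM scaling, the same total, quantile normalization, pseudocounts of 0.5 and 5 and a filter at a mean of 50 left 3 higher. Sfrp5 and Dkk2 were below that filter and got no value there. With a replicate block, 4 antagonists were higher, Sfrp2 (limma adjusted p = 0.025) being added, as were 9 fibroblast markers, and 3036 genes were called in all. The labels give the libraries numbers but no shared litter or day, and the deviations of same-numbered libraries correlated at 0.12 across genes, so the block is no evidence of pairing. The order of the antagonists by level per length was the same with the longest transcript as length. Depth limits Dkk1, Notum and the low library of Sfrp5.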
